A study of Homo sapiens with 9 samples.

Results

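The genes described here were 43 genes of the antioxidant response, of glutathione and NADPH metabolism and of the metallothionein family. They were chosen by name, and all 43 were found among the 60660 genes of the RNA-seq count matrix of OVCAR3 cells. OVCAR3 is a human cell line derived from a high-grade serous ovarian carcinoma, and in the study it was used to change the level of *CTCFL* (also called BORIS), a DNA-binding paralog of CTCF that is normally restricted to the germline. There were 9 libraries in 3 groups of 3 biological replicates. The study's methods state pooling of 3 technical replicates for the plasmid transfections, that is Control and CTCFL-OE. For Control, the study's methods name transfection of a plasmid carrying LacZ, with *CTCFL* left as it was. CTCFL-OE cells received 2 µg of a plasmid carrying the *CTCFL* open reading frame and were harvested after 48 h, a transient overexpression. The study's methods give the same amount of plasmid and the same harvest time for Control. CTCFL-KD cells carried an siRNA knockdown of *CTCFL*, and their RNA came from an earlier, separate knockdown experiment. No siRNA control library was used here, so that in CTCFL-KD the knockdown, the siRNA transfection and the separate experiment cannot be told apart.

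NFE2L2, better known as NRF2, is the transcription factor that drives the antioxidant program. KEAP1 holds it in the cytoplasm and hands it to the proteasome until electrophiles or oxidants release it, after which NRF2 pairs with small MAF proteins on antioxidant response elements. Its targets make and recycle glutathione and thioredoxin, supply NADPH, store iron and detoxify quinones and aldehydes, and their high expression is known for drug resistance in carcinomas. Metallothioneins are small cysteine-rich proteins that bind zinc and copper, and they answer chiefly to the metal-sensing factor MTF1.

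Some of the genes carry the known response elements directly upstream of their start, and 5 promoters are shown because they hold such an element and their genes return in the results below. *TXNRD1*, *GCLM* and *ME1* were lower in CTCFL-KD, *GSTA4* was higher, and *MT2A* is the main metallothionein of these cells. Each line gives the 250 bases before a RefSeq start on GRCh38.p14, 5′ to 3′ on the gene's strand. Capitals mark every match to the antioxidant response element TGACNNNGC, to the metal response element TGCACNC or TGCGCNC, or to AGGGGGC, a core of the motif shared by CTCF and CTCFL, on either strand. The windows lie at chr12:104215529-104215778 (plus strand) for *TXNRD1*, chr1:93909431-93909680 (minus) for *GCLM*, chr6:83431052-83431301 (minus) for *ME1*, chr6:52995285-52995534 (minus) for *GSTA4* and chr16:56608334-56608583 (plus) for *MT2A*.
TXNRD1: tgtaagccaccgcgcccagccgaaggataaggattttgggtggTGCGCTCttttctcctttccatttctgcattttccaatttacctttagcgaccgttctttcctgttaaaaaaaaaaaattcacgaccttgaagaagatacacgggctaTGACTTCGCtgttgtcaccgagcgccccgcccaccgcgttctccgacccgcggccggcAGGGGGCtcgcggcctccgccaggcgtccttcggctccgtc
GCLM: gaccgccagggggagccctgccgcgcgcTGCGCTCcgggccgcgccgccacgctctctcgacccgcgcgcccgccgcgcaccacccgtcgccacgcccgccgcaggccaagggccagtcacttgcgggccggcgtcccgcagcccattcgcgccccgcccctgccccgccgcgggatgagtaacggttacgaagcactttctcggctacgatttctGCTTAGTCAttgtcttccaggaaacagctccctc
ME1: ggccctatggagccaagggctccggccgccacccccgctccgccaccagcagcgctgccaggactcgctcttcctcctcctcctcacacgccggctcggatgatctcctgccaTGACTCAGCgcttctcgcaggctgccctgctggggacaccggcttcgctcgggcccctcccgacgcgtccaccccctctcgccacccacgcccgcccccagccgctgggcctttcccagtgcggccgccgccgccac
GSTA4: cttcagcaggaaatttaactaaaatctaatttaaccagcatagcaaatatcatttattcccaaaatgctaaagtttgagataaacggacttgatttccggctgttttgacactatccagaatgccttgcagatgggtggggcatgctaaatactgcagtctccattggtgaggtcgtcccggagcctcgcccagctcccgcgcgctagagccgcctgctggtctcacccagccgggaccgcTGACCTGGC
MT2A: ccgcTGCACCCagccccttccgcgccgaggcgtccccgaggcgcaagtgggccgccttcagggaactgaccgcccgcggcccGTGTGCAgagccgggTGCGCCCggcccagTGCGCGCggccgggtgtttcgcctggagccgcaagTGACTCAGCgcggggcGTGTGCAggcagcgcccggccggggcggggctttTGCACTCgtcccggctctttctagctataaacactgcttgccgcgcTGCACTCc

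The *TXNRD1* window held the antioxidant element TGACTTCGC 99 bases upstream of the start, a metal element and the AGGGGGC core. In *GCLM* the antioxidant element stood on the opposite strand 34 bases upstream, and in *GSTA4* it ended at the start itself. *ME1* and *MT2A* shared the same antioxidant element, TGACTCAGC, which also contains the AP-1 letters TGACTCA. *MT2A* had 7 matches to the metal element. The windows of *NQO1* and *SRXN1*, NRF2 targets that were also lower in CTCFL-KD, held no match to any of them. Promoter windows were found for 33 of the 43 genes, 46 windows in all. TGACNNNGC was in 12 of these 46 windows and in 10.9% of 35093 human promoter windows of this length, TGCACNC in 7 and 9.86%, TGCGCNC in 16 and 16.8%, and AGGGGGC in 6 and 13.3%. A match describes the letters only. *FTH1*, *HMOX1*, *GSR*, *PRDX1*, *PRDX6*, *SOD1*, *AKR1B10*, *MT1E*, *MT1F* and *MT1G* had no entry in the set of promoter sequences used here.

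Libraries held 14332622 to 24490080 counts. Levels are given as CPM, the counts of a gene scaled to a library of 1000000 with TMM-adjusted library sizes. *CTCFL* had 6, 9 and 10 counts in Control, 36, 34 and 72 in CTCFL-OE, against 0, 1 and 0 in CTCFL-KD, so the labels held at this low depth. Of the 10 ovarian carcinoma markers, 9 passed the filter on low counts and only *ESR1* did not, with 2 to 11 counts per library. Their levels were not even between groups, and the 10 summed to 6059 to 6247 unscaled CPM in Control, 4490 to 5859 in CTCFL-OE, compared with 9766 to 12508 in CTCFL-KD. In CTCFL-KD 6 of the 9 tested were called higher, led by *MUC16* (log2 fold change 2.84, edgeR adjusted p = 0.000149), and *KRT7* (-1.12, edgeR adjusted p = 0.0164) and *WT1* (-0.63, edgeR adjusted p = 0.0272) lower. The part of this in the results was not tested. The 12 fibroblast markers summed to 29.9 to 36.1 unscaled CPM in Control, 28.1 to 42.7 in CTCFL-OE, compared with 34.0 to 40.6 in CTCFL-KD, and *COL6A3* had at most 1 count in any library. Of the 5 tested, 2 were called higher in CTCFL-KD and none lower, and 3 had log2 fold changes below 0. The 2 were *COL1A2*, with 0 counts in every Control library and 156 to 247 in CTCFL-KD, and *POSTN*, with 1 to 5 and 9 to 18. *COL1A1*, the most abundant of the list in Control, had 522 to 794 counts there and 289 to 389 in CTCFL-KD (log2 fold change -0.36, edgeR adjusted p = 0.221). The part of such cells in the results was not tested. The 8 leukocyte and endothelial markers summed to at most 11.6 unscaled CPM in any library. Of the 3 tested, *CD14* had 2 to 4 counts in Control, 3 to 8 in CTCFL-OE and 22 to 34 in CTCFL-KD, *PECAM1* had 36 to 45, 11 to 28 and 3 to 7, and *VWF* was called higher in CTCFL-OE (0.71, edgeR adjusted p = 0.0951). *COL1A2*, *POSTN* and *CD14* reached the level of the filter on low counts only in CTCFL-KD, and *PECAM1* only in Control and CTCFL-OE, so no p is given for them. The part of these markers in the results was not tested either. Mitochondrial genes took 6.16 to 6.52% of counts in Control, 7.40 to 14.9% in CTCFL-OE and 7.80 to 11.8% in CTCFL-KD, and the part of this share in the results was not tested.

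CTCFL-KD replicate 1 stood apart from replicates 2 and 3 and touched many of these genes. Across 11599 expressed genes, its deviation from its group correlated with exon length with a Spearman rho of -0.52, with a median of 0.80 (log2) in the shortest 20% of genes and -0.61 in the longest 20%. The antioxidant genes were short, with a median merged exon length of 2907 bases against 4564 for all tested genes. Replicate 1 was the highest of the 9 libraries in 24 of the 40 tested genes, of which 20 were below that median length, and in 15 of the 40 it lay on the other side of the Control mean from replicates 2 and 3. For genes named with values, a call of CTCFL-KD against Control that changed without this library is therefore given in that form too.

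**Figure D1:**
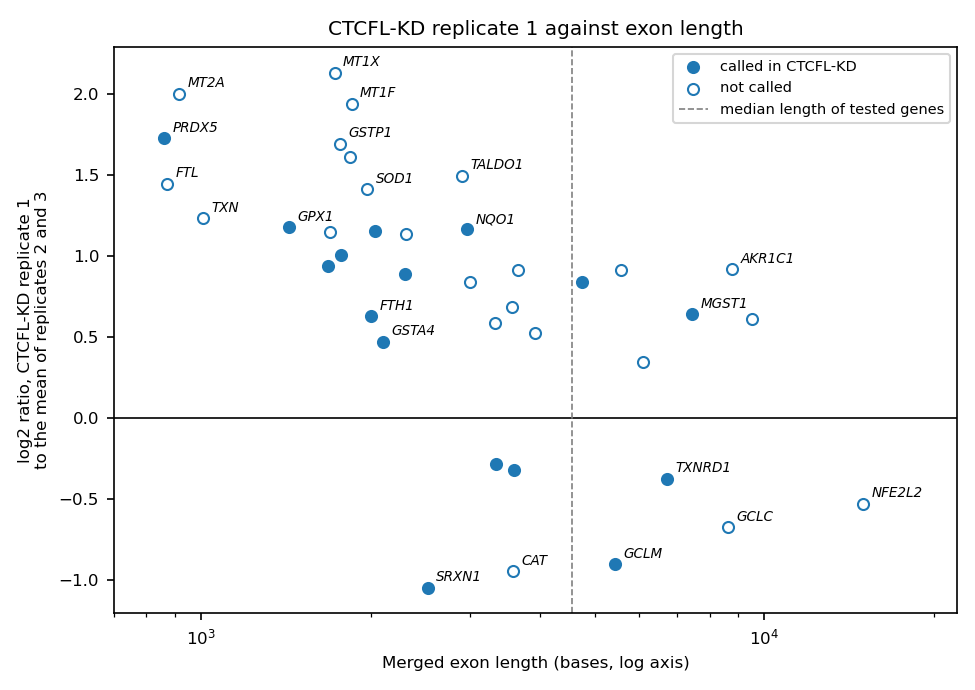
Log2 ratio of CTCFL-KD replicate 1 to the mean of replicates 2 and 3 for 39 genes, against their merged exon length in bases on a log axis; filled points were called in CTCFL-KD, and the dashed line is the median length of tested genes, 4564 bases. The short metallothionein, *PRDX5*, *FTL* and *GSTP1* transcripts sit between 1.45 and 2.13, and every gene to the right of the dashed line lies below 1.

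**Figure D2:**
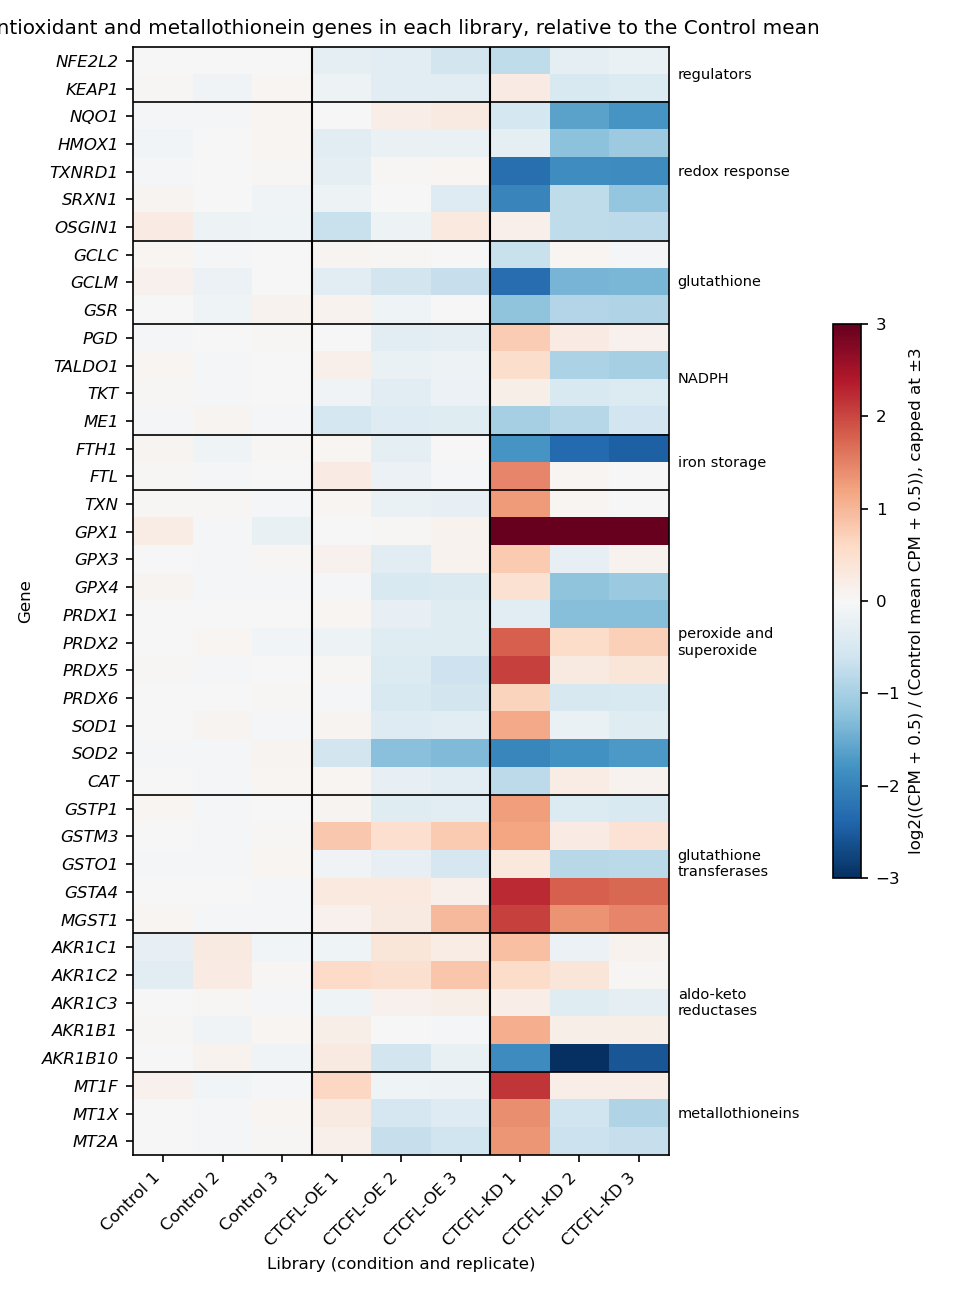
Log2 ratio of each library's CPM to the Control mean (0.5 CPM added to both, colours capped at 3 in either direction) for the 40 tested genes in 9 libraries, grouped by role. Blue *TXNRD1*, *GCLM*, *FTH1*, *SOD2* and *AKR1B10* and red *GPX1*, *GSTA4* and *MGST1* fill all 3 CTCFL-KD columns, whereas the metallothioneins are red in CTCFL-KD replicate 1 and, except *MT1F*, blue in replicates 2 and 3.

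The first comparison asked which antioxidant genes differed between CTCFL-KD and Control. In bulk RNA, a change in the make-up of the culture and a change of RNA per cell cannot be told apart. Of the 43 genes, 40 passed the filter on low counts. The failures were *GPX2*, an epithelial glutathione peroxidase with 1 to 5 counts per library, *MT1G* with 0 to 3, and *MT1E*, which had no count in any of the 9 libraries, a level that allows up to 3 counts in each. With the quasi-likelihood test of edgeR, p-values adjusted by Benjamini-Hochberg over 17794 genes and a threshold of 0.05, 17 of the 40 (42.5%) were called in CTCFL-KD, against a background of 38.2% of all tested genes. Of these, 6 (15%) were higher and 11 (27.5%) lower, where 21.4% and 16.8% of all genes were. With a log2 fold change beyond 1 as well, the DEGs numbered 12 (30%), against 23.2%. These counts include *GPX1*, the single gene of the 40 that passed the filter through 1 group only, CTCFL-KD, and so had to differ. Among the other 39 genes, 5 were called higher and 11 lower, with 11 DEGs. All 3 CTCFL-KD libraries lay on one side of all 3 Control libraries for 21 genes (52.5%), against 56.3%. The median log2 fold change was -0.13 over the 40 genes and 0.08 over all genes. Without CTCFL-KD replicate 1, 26 of the 40 were called, 5 higher and 21 lower, where 49.9% of all genes were called, 26.2% higher and 23.7% lower.

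In CTCFL-OE only 1 of the 40 genes (2.5%) was called at the threshold of 0.1 used for this comparison, against 3.15% of all genes. It was lower (1.16% of all genes were called lower and 1.99% higher) and was a DEG by its log2 fold change (2.07% of all genes). The groups did not overlap for 14 genes (35%), against 37.1%. Both comparisons used the same 3 Control libraries, so that the CTCFL-OE and CTCFL-KD values below are not independent. Without CTCFL-KD replicate 1, 9 of the 40 were called in CTCFL-OE, 3 higher and 6 lower, where 27.4% of all genes were called. With only the groups compared in the fit, 20.2% of all genes were called in CTCFL-OE. CTCFL-OE calls of named genes under these fits are to be read beside these shares. The treated groups were also compared with each other, and in CTCFL-KD against CTCFL-OE 13 genes (32.5%) were called, 5 higher, *GPX1* among them, and 8 lower, where 26.8% of all genes were called, 15.3% higher and 11.5% lower.

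**Figure D3:**
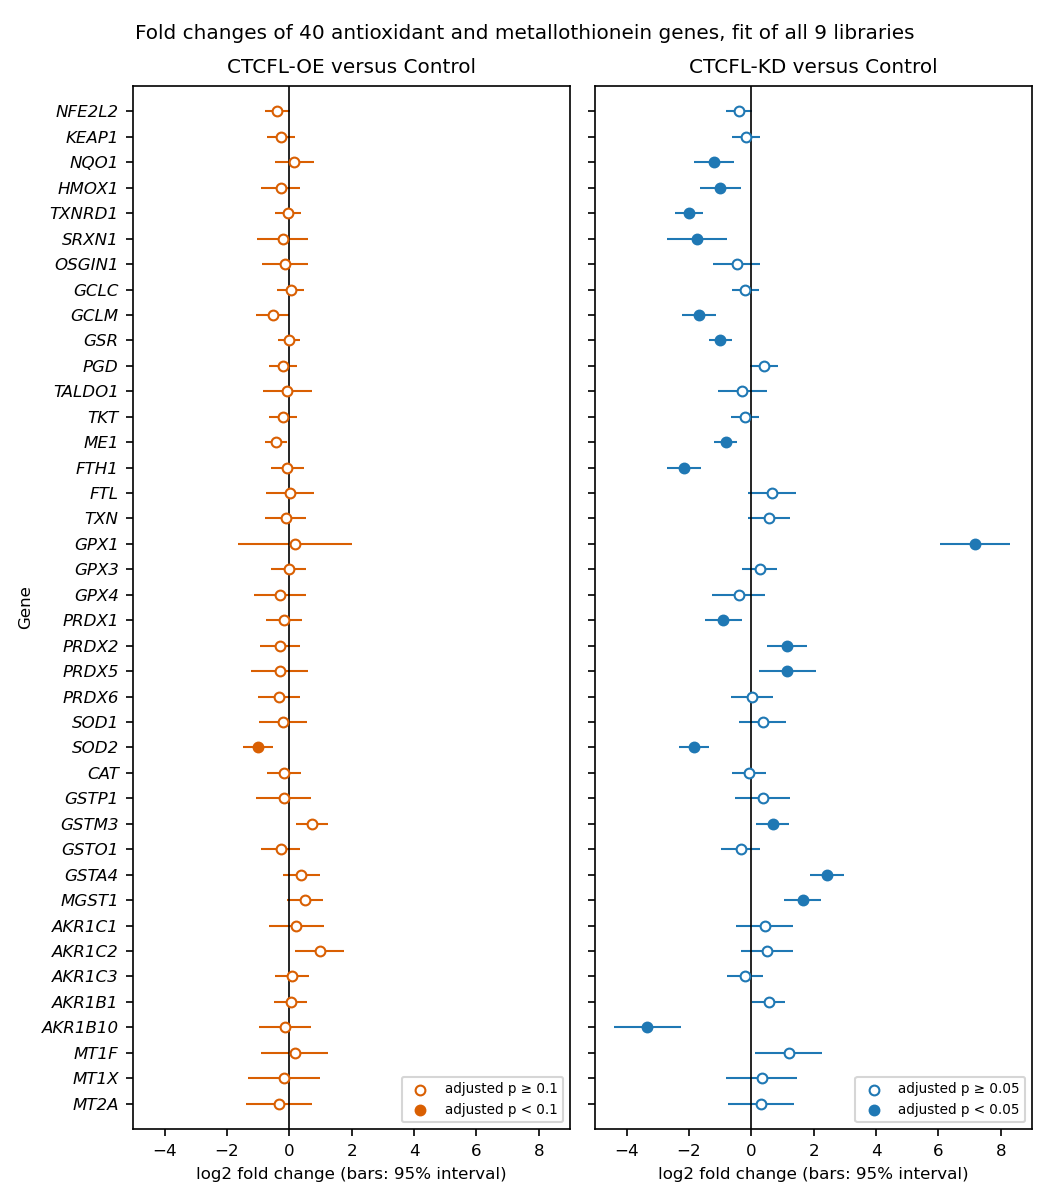
Log2 fold change and 95% interval of each of the 40 tested genes in CTCFL-OE (left) and CTCFL-KD (right) against Control, from 1 fit of all 9 libraries; filled points passed the adjusted p threshold of their comparison. *SOD2* is the single filled point on the left, and on the right the filled points run from *AKR1B10* at -3.33 to *GPX1* at 7.17.

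With all 9 libraries in the fit, the regulators themselves did not pass the test in either comparison. *NFE2L2* stood at 92.4, 93.5 and 91.1 CPM in Control, 75.5, 74.6 and 62.7 in CTCFL-OE, next to 54.0, 76.5 and 79.8 in CTCFL-KD. Every treated library lay under every Control library. The log2 fold changes were -0.38 (SE 0.18) in CTCFL-OE and -0.40 (SE 0.18) in CTCFL-KD, with edgeR adjusted p = 0.307 and 0.11. The CTCFL-OE value was called without CTCFL-KD replicate 1 (-0.38, edgeR adjusted p = 0.0333) and with only the groups compared in the fit (-0.34, edgeR adjusted p = 0.0726). Exons of *NFE2L2* overlap those of *HNRNPA3* on the opposite strand over 23.4% of their length, and the counting is not stated to use strand. *KEAP1*, the adaptor that delivers NRF2 to its ubiquitin ligase, read 74.2, 67.8 and 75.4 CPM in Control, 65.4, 58.1 and 57.5 in CTCFL-OE, against 86.3, 52.4 and 54.4 in CTCFL-KD. In CTCFL-KD the 3 libraries lay on both sides of Control, with a log2 fold change of -0.17 (edgeR adjusted p = 0.534). Without CTCFL-KD replicate 1 *KEAP1* was lower in CTCFL-KD, at -0.43 (adjusted p = 0.00651 by edgeR), and in CTCFL-OE, at -0.26 (adjusted p = 0.0789 by edgeR). With all libraries the CTCFL-OE value was also -0.26 (edgeR adjusted p = 0.523). In CTCFL-OE 27.4% of all genes were called without that library, against 3.15% with all.

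Among the classical redox targets of NRF2, 4 of 5 fell in CTCFL-KD, where 16.8% of all genes were called lower, and none was called in CTCFL-OE. The 4 include *HMOX1*, which was called in 11 of 17 alternatives. *NQO1* (chr16:69706996-69726668, minus strand of GRCh38), which reduces quinones in a 2-electron step, had 112, 112 and 119 CPM in Control and 115, 132 and 139 in CTCFL-OE. In CTCFL-KD it had 80.0, 37.3 and 33.5, all below the other 6 libraries and highest in replicate 1. It fell by 1.19 on the log2 scale (SE 0.29, edgeR adjusted p = 0.00879). *TXNRD1* (chr12:104215779-104350307, plus strand) makes the cytosolic thioredoxin reductase, a selenoprotein that keeps thioredoxin reduced with NADPH. Its level was 572, 600 and 608 CPM in Control, 493, 609 and 623 in CTCFL-OE, compared with 124, 162 and 159 in CTCFL-KD. The CTCFL-KD libraries lay far from all others and close together, a log2 fold change of -2.0 (SE 0.20, edgeR adjusted p = 3.81e-05). Without replicate 1 it was -1.88.

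*SRXN1*, sulfiredoxin, repairs over-oxidised peroxiredoxins. It was sparse, with 40, 48 and 33 counts in Control, 35, 36 and 21 in CTCFL-OE, next to 1, 15 and 10 in CTCFL-KD. The CTCFL-KD counts were all below the others, and the log2 fold change was -1.74 (SE 0.44, edgeR adjusted p = 0.00982). An overlapping transcript on the same strand covers 90.7% of its exon bases, and the counting may not separate them. *HMOX1*, heme oxygenase, frees iron from heme, and its counts gave 3.26, 3.50 and 3.60 CPM in Control, 2.65, 2.93 and 2.95 in CTCFL-OE, against 2.80, 1.19 and 1.37 in CTCFL-KD. Replicate 1 of CTCFL-KD sat among the CTCFL-OE libraries, and the other two were lowest. It fell by 0.997 on the log2 scale (SE 0.30, edgeR adjusted p = 0.0228), but the call was lost without any single Control library or without CTCFL-KD replicate 2 or 3, or with only the groups compared, with edgeR adjusted p from 0.0521 to 0.0808, and without replicate 1 it was -1.42 (adjusted p = 0.000365 by edgeR). *OSGIN1*, an oxidative stress-induced growth inhibitor, ranged from 2.96 to 6.82 CPM over the 9 libraries with overlapping groups, and was not called unless CTCFL-KD replicate 1 was left out (log2 fold change -0.86, edgeR adjusted p = 0.0349).

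Between CTCFL-KD and CTCFL-OE, *NQO1* (-1.36), *TXNRD1* (-1.95) and *SRXN1* (-1.53) differed, with edgeR adjusted p = 0.00659, 6.72e-05 and 0.0269. For *SRXN1* this call was lost without CTCFL-OE replicate 1 or 2 or CTCFL-KD replicate 3, or with only the groups compared, with edgeR adjusted p from 0.0595 to 0.0872. *HMOX1* did not pass this test (-0.72, edgeR adjusted p = 0.103) with all libraries, but passed without CTCFL-KD replicate 1 (-1.14, edgeR adjusted p = 0.00221) and with length offsets, which adjust each library for its trend with exon length (-0.91, edgeR adjusted p = 0.0169, or 0.0299 with the replicate block as well).

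**Figure D4:**
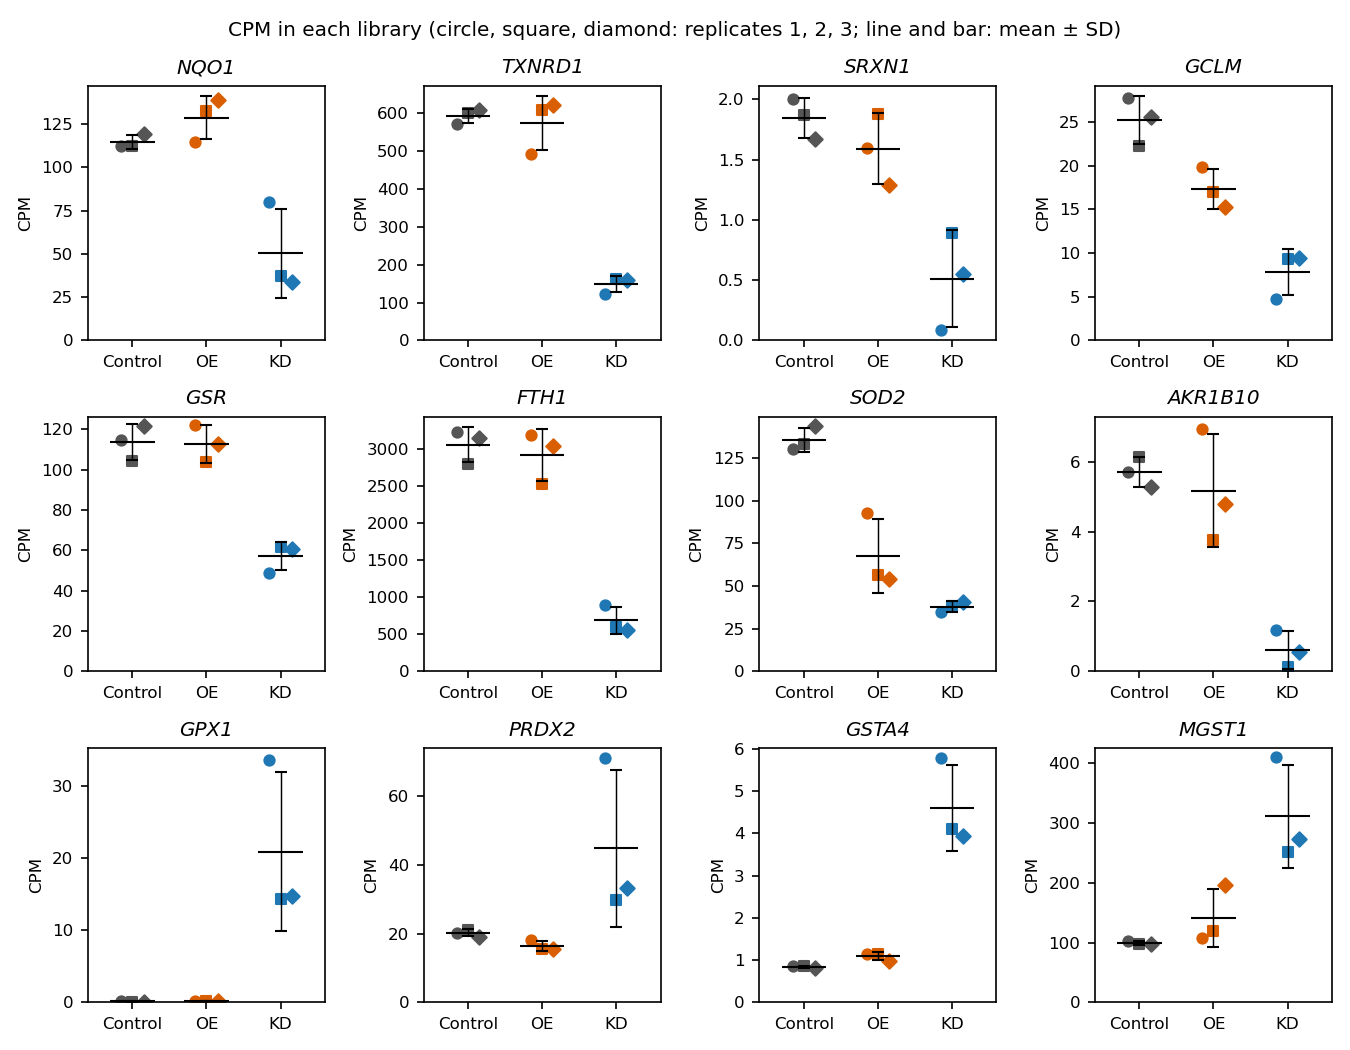
CPM of 12 genes in each library, with circles, squares and diamonds for replicates 1, 2 and 3 and a line and bar for the mean and SD of 3 libraries. The first 8 panels are lowest in CTCFL-KD and the last 4 highest; *FTH1* falls from a Control mean of 3063 to 690.2 CPM, and *GPX1* is above 5 counts only in CTCFL-KD.

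Glutathione is made by glutamate-cysteine ligase, whose catalytic subunit is *GCLC* and whose modifier subunit, *GCLM*, lowers its feedback inhibition. The modifier fell in CTCFL-KD and the catalytic subunit was not called. *GCLM* read 27.7, 22.3 and 25.6 CPM in Control, 19.8, 16.9 and 15.3 in CTCFL-OE, compared with 4.78, 9.33 and 9.42 in CTCFL-KD. The 3 groups did not overlap, and CTCFL-OE lay between the others. Against Control, the log2 fold change in CTCFL-KD was -1.67 (SE 0.25, edgeR adjusted p = 0.000547) and -0.54 in CTCFL-OE, where it did not pass (SE 0.24, edgeR adjusted p = 0.275) with all libraries, but did without CTCFL-KD replicate 1 (-0.53, edgeR adjusted p = 0.0252) and with only the groups compared (-0.49, edgeR adjusted p = 0.0601). The treated groups differed by -1.13 (edgeR adjusted p = 0.00706). *GCLC* ranged from 22.2 to 24.4 CPM in Control, CTCFL-OE and CTCFL-KD replicates 2 and 3, with 14.3 in CTCFL-KD replicate 1, and had a log2 fold change of -0.19 (95% interval -0.62 to 0.24, edgeR adjusted p = 0.462).

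*GSR*, glutathione reductase, returns oxidised glutathione to its thiol form. It stood at 115, 104 and 122 CPM in Control, 122, 104 and 113 in CTCFL-OE, next to 49.0, 61.7 and 60.8 in CTCFL-KD. Control and CTCFL-OE covered the same range, and CTCFL-KD lay below it, with a log2 fold change of -0.99 (SE 0.17, edgeR adjusted p = 0.00112). The difference between CTCFL-KD and CTCFL-OE was -0.98 (edgeR adjusted p = 0.0017).

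NADPH, the reductant for both systems, comes from the pentose phosphate pathway and from malic enzyme. *ME1*, the cytosolic malic enzyme, was the only 1 of 4 such genes called in CTCFL-KD, where 38.2% of all genes were. It had 32.4, 34.7 and 31.9 CPM in Control, 22.7, 25.1 and 25.6 in CTCFL-OE, against 16.2, 17.9 and 21.9 in CTCFL-KD, so the groups did not overlap and CTCFL-KD was lowest. It fell by 0.82 on the log2 scale in CTCFL-KD (SE 0.17, edgeR adjusted p = 0.00318). In CTCFL-OE the value was -0.43 (SE 0.17, edgeR adjusted p = 0.209), which passed at 0.0316 without CTCFL-KD replicate 1 and at 0.054 with only the groups compared, and the treated groups were not shown to differ (-0.39, edgeR adjusted p = 0.106).

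*PGD*, phosphogluconate dehydrogenase, was at 323 to 337 CPM in Control and 362 to 564 in CTCFL-KD without overlap, yet missed the threshold (0.41, edgeR adjusted p = 0.144). *TALDO1* (transaldolase) and *TKT* (transketolase) run the non-oxidative arm. *TALDO1* had 192, 177 and 182 CPM in Control and 264, 95.4 and 91.4 in CTCFL-KD, above Control in replicate 1 and far below in the others. Its log2 fold change was -0.29 (edgeR adjusted p = 0.544), and -0.97 without that library (edgeR adjusted p = 0.000192). *TKT* behaved likewise, at -0.20 (edgeR adjusted p = 0.466) with all libraries and -0.43 without CTCFL-KD replicate 1 (edgeR adjusted p = 0.0108).

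The iron-storage shell ferritin is built of heavy and light chains. *FTH1* (chr11:61959718-61967634, minus strand), the heavy chain with the ferroxidase site, was the most abundant of these transcripts and fell in CTCFL-KD. Its level was 3236, 2796 and 3157 CPM in Control, 3196, 2534 and 3044 in CTCFL-OE, compared with 903, 606 and 562 in CTCFL-KD. No CTCFL-KD library came near the other 6, and the log2 fold change was -2.15 (SE 0.25, edgeR adjusted p = 0.000114), or -2.08 against CTCFL-OE (edgeR adjusted p = 0.000195). Since near-identical pseudogenes may take or give reads, the 26 *FTH1* and *FTH1P* identifiers were also summed, of which *FTH1* held 76.3% of the counts. The sum had a log2 fold change of -2.10 (SE 0.27, edgeR adjusted p = 0.000234). *BEST1*, on the opposite strand, overlaps 63.2% of the *FTH1* exon bases but had 295 counts in all 9 libraries together, against 397449 for *FTH1*.

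*FTL*, the light chain, was not called. It stood at 205, 195 and 201 CPM in Control, 237, 179 and 193 in CTCFL-OE, next to 554, 207 and 199 in CTCFL-KD. Replicate 1 of CTCFL-KD was the outlying value and the other 8 libraries overlapped. The log2 fold change was 0.68 (SE 0.35, edgeR adjusted p = 0.15) with all libraries and 0.02 without that one (edgeR adjusted p = 0.898). On the TPM scale, which divides by merged exon length, *FTH1* had 4624 ± 271 TPM (SD, n = 3) in Control against 696.0 ± 4.05 for *FTL*. In CTCFL-KD the levels were 770.6 ± 65.7 and 758.5 ± 194 TPM (SD, n = 3), which overlapped.

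Of 11 tested genes that serve the removal of peroxide and superoxide, 3 rose and 2 fell in CTCFL-KD, where 38.2% of all genes were called, and 1 fell in CTCFL-OE. The 3 include *GPX1*. Of these 5 calls in CTCFL-KD, *PRDX1* was kept in 12 and *PRDX5* in 8 of 17 alternatives. *GPX1* (chr3:49357174-49358605, minus strand), the cytosolic glutathione peroxidase, is a selenoprotein expressed in most cell types. It had 5, 3 and 1 counts in Control, 3, 3 and 3 in CTCFL-OE, against 372, 241 and 270 in CTCFL-KD. It had at most 5 counts in 6 libraries and at least 241 in 3, with no value between. In CTCFL-KD the level was 33.6, 14.3 and 14.8 CPM. Over the summed counts of each group, scaled by library size, the ratio of CTCFL-KD was 139 to Control (95% exact counting interval 72.9 to 305) and 122 to CTCFL-OE (63.9 to 267), intervals that cover counting error only. *GPX1* passed the filter on low counts only through its CTCFL-KD libraries, so its fitted values are a description and are given with no p. The edgeR log2 fold change was 7.17 (SE 0.51) against Control, 6.66 without replicate 1, and 6.99 (SE 0.51) against CTCFL-OE. In GENCODE a second gene on the same strand overlaps 39.9% of the *GPX1* exon bases, and its identifier is not in the count matrix. Summing *GPX1* with its 2 pseudogenes gave 6.77 (SE 0.51). Whether all 9 libraries were counted on this locus in the same way was not tested.

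*SOD2* encodes the manganese superoxide dismutase of mitochondria and was the only gene called in both comparisons. Its level was 130, 133 and 144 CPM in Control, 92.9, 56.3 and 54.3 in CTCFL-OE, compared with 34.8, 38.2 and 40.9 in CTCFL-KD. The 3 groups did not overlap, with CTCFL-KD lowest and CTCFL-OE replicate 1 nearest to Control. In CTCFL-KD it fell by 1.84 on the log2 scale (SE 0.22, edgeR adjusted p = 0.000151). In CTCFL-OE it fell by 1.0 (SE 0.22, edgeR adjusted p = 0.0555). That call was lost without any 1 of the Control libraries or without CTCFL-OE replicate 2 or 3, with log2 fold changes from -1.03 to -0.87 and edgeR adjusted p from 0.201 to 0.272. The treated groups differed by -0.84 (edgeR adjusted p = 0.0164), a call lost with only the groups compared (edgeR adjusted p = 0.063). The mitochondrial share of counts was higher in every treated library than in Control.

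Peroxiredoxins reduce peroxide with thioredoxin, and the cytosolic *PRDX1* and *PRDX2* moved in opposite directions. *PRDX1* stood at 483, 493 and 492 CPM in Control, 509, 413 and 377 in CTCFL-OE, next to 386, 202 and 200 in CTCFL-KD. All CTCFL-KD values were under Control, but replicate 1 was within the CTCFL-OE range. It fell by 0.90 on the log2 scale (SE 0.27, edgeR adjusted p = 0.0218). The call was lost without any single Control library or without CTCFL-KD replicate 2 or 3 (edgeR adjusted p from 0.0564 to 0.0703), and without replicate 1 the value was -1.28 (edgeR adjusted p = 7.64e-05). Against CTCFL-OE *PRDX1* was not called (-0.72, edgeR adjusted p = 0.0664), except without CTCFL-KD replicate 1 (-1.11, edgeR adjusted p = 0.000272) and in some other alternatives. These were DESeq2 (adjusted p = 0.0184), no filter on low counts, the replicate block and length offsets with or without that block (edgeR adjusted p from 0.00361 to 0.0363). *MMACHC* on the opposite strand overlaps 29.8% of its exon bases, with 2747 counts in all against 68569.

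*PRDX2* was at 20.2, 21.2 and 19.1 CPM in Control, 18.2, 15.6 and 15.6 in CTCFL-OE, against 71.2, 29.8 and 33.4 in CTCFL-KD. Every CTCFL-KD library was above the other 6, replicate 1 by the most. It rose by 1.15 (SE 0.29, edgeR adjusted p = 0.0106), or by 0.65 without replicate 1 (edgeR adjusted p = 0.00123), and by 1.44 against CTCFL-OE (edgeR adjusted p = 0.0049). *PRDX5*, found in mitochondria and peroxisomes, read 149, 143 and 146 CPM in Control, 150, 109 and 95.4 in CTCFL-OE, compared with 607, 177 and 188 in CTCFL-KD. Its 3 CTCFL-KD libraries were the highest, but replicate 1 was far above the other two. It rose by 1.15 (SE 0.42, edgeR adjusted p = 0.0492), a call lost without any single library other than CTCFL-KD replicates 2 and 3 (edgeR adjusted p from 0.0666 to 0.125), with RLE scaling (0.0505) and with only the groups compared (0.106). Without CTCFL-KD replicate 1 the value was 0.33 (edgeR adjusted p = 0.122). Against CTCFL-OE it was 1.46 (edgeR adjusted p = 0.0261), which did not pass without CTCFL-OE replicate 2 or 3 (edgeR adjusted p = 0.0921 and 0.0898) or with only the groups compared (0.0689 by edgeR).

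The other 6 genes of this role were not called. *TXN* (thioredoxin), *SOD1* (cytosolic superoxide dismutase), *GPX3* (a secreted peroxidase), *GPX4* (which reduces lipid peroxides and guards against ferroptosis), *PRDX6* and *CAT* (catalase) had log2 fold changes from -0.41 to 0.58 in CTCFL-KD and from -0.33 to -0.02 in CTCFL-OE. *GPX4* had 283, 261 and 264 CPM in Control and 369, 117 and 125 in CTCFL-KD. Replicate 1 was above Control and the others far below. Without replicate 1 *GPX4* was lower, at -1.15 (edgeR adjusted p = 0.000169, with -0.81 and 0.0163 from length offsets together with the replicate block), and *PRDX6* was lower at -0.46 (edgeR adjusted p = 0.028).

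**Figure D5:**
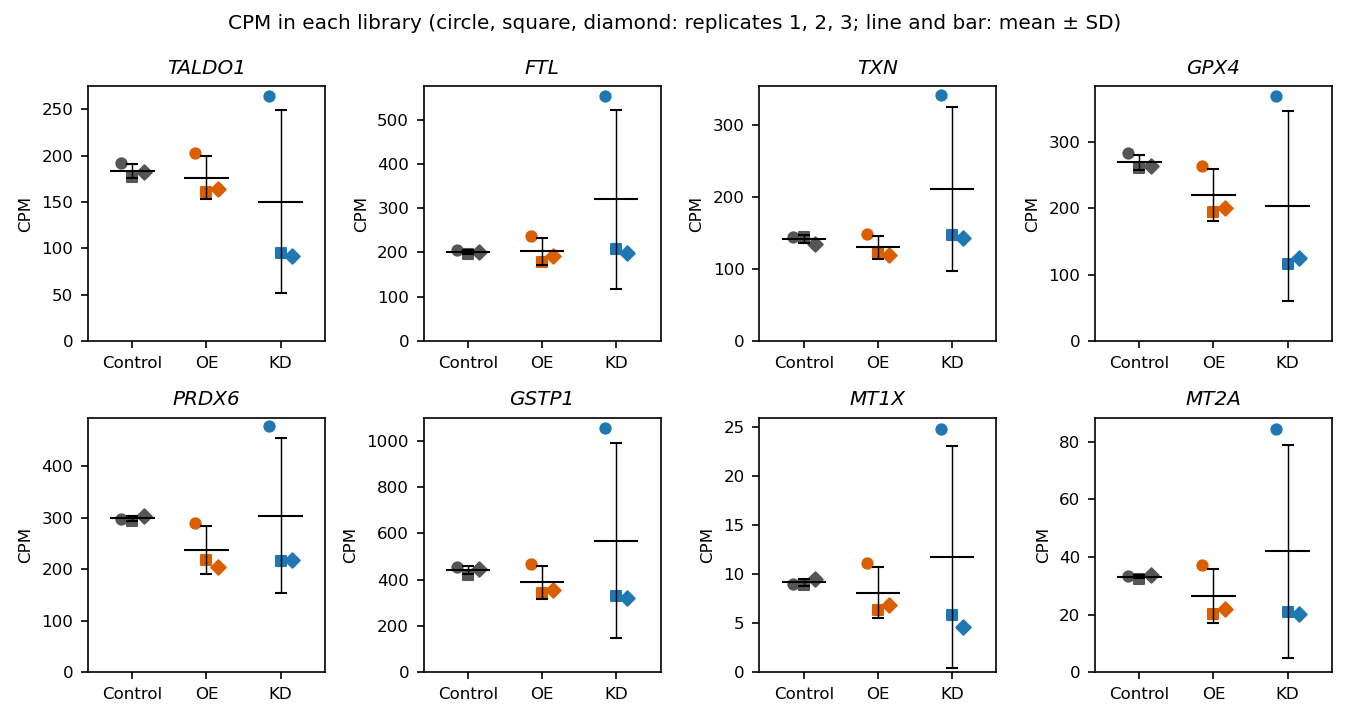
CPM of 8 genes that were not called in CTCFL-KD, with circles, squares and diamonds for replicates 1, 2 and 3 and a line and bar for the mean and SD of 3 libraries. In each panel CTCFL-KD replicate 1 is above every other library; replicates 2 and 3 are below Control for *TALDO1*, *GPX4*, *PRDX6*, *GSTP1*, *MT1X* and *MT2A* and level with it for *FTL* and *TXN*.

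Glutathione transferases join glutathione to electrophiles. Of 5 tested, 3 rose in CTCFL-KD, where 21.4% of all genes were called higher, none fell, and none was called in CTCFL-OE. The 3 include *GSTM3*, which was called in 9 of 17 alternatives. *GSTA4*, an alpha-class enzyme known for clearing the lipid aldehyde 4-hydroxynonenal, had 17, 22 and 16 counts in Control, 25, 22 and 16 in CTCFL-OE, next to 64, 69 and 72 in CTCFL-KD. In CPM these were 0.81 to 0.855, 0.983 to 1.15 and 3.94 to 5.77. The groups did not overlap and CTCFL-KD stood well above the rest. It rose by 2.44 on the log2 scale (SE 0.25, edgeR adjusted p = 4.58e-05), and by 2.06 against CTCFL-OE (edgeR adjusted p = 0.000183).

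*MGST1*, a membrane-bound transferase with peroxidase activity, read 103, 97.1 and 97.5 CPM in Control, 108, 120 and 197 in CTCFL-OE, against 410, 252 and 273 in CTCFL-KD. The groups did not overlap, although CTCFL-OE replicate 3 was nearer to CTCFL-KD than to Control. It rose by 1.65 in CTCFL-KD (SE 0.27, edgeR adjusted p = 0.00089). In CTCFL-OE the value was 0.51 (SE 0.26, edgeR adjusted p = 0.334, or 0.097 without CTCFL-KD replicate 1), and the treated groups differed by 1.14 (edgeR adjusted p = 0.00941).

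*GSTM3*, a mu-class transferase, was above Control in both treated groups. It had 19.7, 19.6 and 20.6 CPM in Control, 35.6, 28.7 and 34.5 in CTCFL-OE, compared with 45.9, 23.8 and 27.1 in CTCFL-KD. The treated groups overlapped each other and neither overlapped Control. Against Control, the log2 fold change in CTCFL-KD was 0.69 (SE 0.24, edgeR adjusted p = 0.0405) and 0.72 in CTCFL-OE (SE 0.24, edgeR adjusted p = 0.158), with a difference of -0.03 between them (edgeR adjusted p = 0.931). The CTCFL-KD call was lost without any single Control or CTCFL-OE library (edgeR adjusted p from 0.0543 to 0.119), without the filter on low counts (0.0509) and with only the groups compared (0.0778). Without CTCFL-KD replicate 1 it was 0.35 (edgeR adjusted p = 0.0364), the CTCFL-OE value was then called at 0.72 (edgeR adjusted p = 0.0049), and CTCFL-KD was then different from CTCFL-OE by -0.37 (edgeR adjusted p = 0.0393). The CTCFL-OE value was also called with DESeq2 (adjusted p = 0.061), and by edgeR without the filter on low counts (adjusted p = 0.068) and with only the groups compared (adjusted p = 0.0129). *GSTP1*, the pi-class enzyme abundant in carcinomas, had 457, 422 and 446 CPM in Control and 1055, 331 and 320.0 in CTCFL-KD. Replicate 1 was on the other side of Control from the rest, with a log2 fold change of 0.37 (edgeR adjusted p = 0.498), and of -0.43 without that library (edgeR adjusted p = 0.0353). *GSTO1*, an omega-class enzyme, was likewise split, at -0.34 (edgeR adjusted p = 0.367) with all libraries and -0.83 without CTCFL-KD replicate 1 (edgeR adjusted p = 0.000454), and was also called with length offsets (-0.61, edgeR adjusted p = 0.0312).

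Aldo-keto reductases reduce aldehydes, ketones and steroids. *AKR1B10* (chr7:134527567-134541412, plus strand), which reduces retinal and lipid aldehydes and is a strong NRF2 target in carcinomas, fell in CTCFL-KD. It had 114, 158 and 104 counts in Control, 152, 72 and 78 in CTCFL-OE, next to 13, 2 and 10 in CTCFL-KD. In CPM these were 5.71, 6.14 and 5.27, then 6.93, 3.76 and 4.79, then 1.17, 0.119 and 0.548. Control and CTCFL-OE overlapped and CTCFL-KD was below both. It fell by 3.33 on the log2 scale (SE 0.48, edgeR adjusted p = 0.000455), with values from -4.04 to -2.79 over single libraries left out, and differed from CTCFL-OE by -3.19 (edgeR adjusted p = 0.000859). *AKR1B1*, aldose reductase, was above Control in all 3 CTCFL-KD libraries, at 125, 66.1 and 66.3 CPM against 53.9 to 60.8, with replicate 1 far above the others. It missed the threshold with all libraries (0.56, edgeR adjusted p = 0.0929) and was called only without CTCFL-KD replicate 2 (edgeR adjusted p = 0.0478).

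The 3 AKR1C genes, hydroxysteroid dehydrogenases of related sequence that lie side by side on chromosome 10, were sparse, at 0.351 to 2.44 CPM. None was called. *AKR1C2* was above Control in all CTCFL-OE libraries, at 1.09, 0.993 and 1.41 CPM against 0.351, 0.777 and 0.608, with a log2 fold change of 0.97 (SE 0.36, edgeR adjusted p = 0.194, or 0.0717 without CTCFL-KD replicate 1 and 0.0866 with only the groups compared). Reads may be split among these genes, and with *AKR1C1* to *AKR1C4* summed the log2 fold changes were 0.32 in CTCFL-OE (edgeR adjusted p = 0.55) and 0.14 in CTCFL-KD (edgeR adjusted p = 0.702).

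Metallothioneins were not called in either comparison by the edgeR fit of all libraries, and CTCFL-KD replicate 1 was far above replicates 2 and 3. *MT2A* had 33.3, 32.6 and 33.9 CPM in Control, 37.2, 20.3 and 21.9 in CTCFL-OE, against 84.4, 21.0 and 20.3 in CTCFL-KD. *MT1X* had 9.07, 8.90 and 9.57 CPM in Control, 11.2, 6.38 and 6.88 in CTCFL-OE, compared with 24.8, 5.89 and 4.66 in CTCFL-KD. In both treated groups replicate 1 was above Control and replicates 2 and 3 were below it. The log2 fold changes in CTCFL-KD were 0.33 for both genes (edgeR adjusted p = 0.617 and 0.639). Without replicate 1 they were -0.68 for *MT2A* and -0.80 for *MT1X* (edgeR adjusted p = 0.0277 and 0.0195), so the direction turned with that library. *MT1F* read 7.21, 6.18 and 6.33 CPM in Control, 10.3, 5.96 and 5.90 in CTCFL-OE, next to 30.8, 7.61 and 7.67 in CTCFL-KD. Its CTCFL-KD libraries were above Control, with a log2 fold change of 1.20 (edgeR adjusted p = 0.0734). It was called without CTCFL-KD replicate 2 or 3 (1.53 and 1.52, edgeR adjusted p = 0.0279 and 0.0275), with DESeq2 (1.19, adjusted p = 0.033) and by edgeR without the filter on low counts (1.09, adjusted p = 0.000207), and stood at 0.22 without replicate 1 (edgeR adjusted p = 0.455). All 13 *MT1* identifiers summed, of which 6 had counts, gave 0.79 in CTCFL-KD (SE 0.50, edgeR adjusted p = 0.227), and with *MT2A* added 0.50 (edgeR adjusted p = 0.44). The same replicates differed in mitochondrial share, at 7.40% in CTCFL-OE replicate 1 against 12.4 and 14.9% in replicates 2 and 3, and 11.8% in CTCFL-KD replicate 1 against 9.64 and 7.80%. The part of these shares in the metallothionein values was not tested.

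Other genes of the same pathways, 121 listed by name of which 120 were found and 103 tested, are given by count. In CTCFL-OE 2 were called higher and 2 lower, where 1.99% and 1.16% of all genes were. In CTCFL-KD 21 were called higher and 23 lower, where 21.4% and 16.8% of all genes were. By list, CTCFL-KD called 1 higher and 5 lower of 14 other NRF2 regulators, 3 and 4 of 17 other NRF2 targets, 3 and 4 of 15 other glutathione genes, 2 and 2 of 12 other NADPH genes and 5 and 3 of 15 other peroxide and superoxide genes. It called 5 higher and 2 lower of 12 other glutathione transferases, none of 5 other aldo-keto reductases, 1 higher of 4 other metal-response genes and 1 higher and 3 lower of 9 iron and heme genes. These shares lie on both sides of the 21.4% and 16.8% over all genes.

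The extremes of those lists were as follows. *TXNIP*, the thioredoxin-binding inhibitor, fell in both comparisons, with 16.6, 17.1 and 15.4 CPM in Control, 9.90, 6.79 and 3.87 in CTCFL-OE, against 1.35, 2.14 and 1.10 in CTCFL-KD. The groups did not overlap, and the log2 fold changes were -1.25 (SE 0.31) and -3.41 (SE 0.36), with edgeR adjusted p = 0.081 and 6.09e-05. *UGDH*, which makes UDP-glucuronate, was at 135, 130 and 139 CPM in Control and 85.3, 59.3 and 62.3 in CTCFL-OE, where it fell by 0.97 on the log2 scale (SE 0.23, edgeR adjusted p = 0.0701). The mu-class transferases *GSTM4* and *GSTM2* rose by 1.41 and 1.39 in CTCFL-OE (edgeR adjusted p = 0.0704 and 0.0547). These are close paralogs of *GSTM3* that may share reads. None of the CTCFL-OE calls in these lists remained without any single Control library or without CTCFL-OE replicate 2 or 3. In CTCFL-KD *GSTA1* had 2, 0 and 2 counts against 7, 19 and 11 in Control (log2 fold change -2.58). It reached the filter level in 3 libraries, none of them CTCFL-KD, so no p is given. *ANPEP*, an aminopeptidase that breaks down the cysteinyl-glycine left from glutathione, rose by 3.33 (SE 0.26, edgeR adjusted p = 1e-05). *SOD3*, the extracellular superoxide dismutase, had a log2 fold change of 2.45 (SE 0.50), with no p given because no Control library reached the filter level.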

How the data were processed

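RNA-seq was performed on 9 libraries of OVCAR3 cells, and the authors deposited raw read counts per gene, without normalization. Per the study's methods and the submitters' processing notes, reads were trimmed with Trimmomatic, aligned to GRCh38 with STAR and counted with featureCounts of Rsubread. The notes also name kallisto. The annotation release, strand setting and treatment of multimapping reads are not given in the sources used here. The 9 library files equalled their matrix columns, and 0 columns were left unused. The groups came from the sample labels.

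Counts of 17794 genes that passed filterByExpr were TMM-scaled and fitted with edgeR 4.0.16 in R 4.3.3 (glmQLFit with robust estimation, group as the only factor, all 9 libraries). Calls needed a Benjamini-Hochberg adjusted p under 0.1 in CTCFL-OE and under 0.05 in the other comparisons, and a DEG also a log2 fold change beyond 1. The fit was tested on simulated counts. Gene names, positions, overlaps and merged exon lengths came from GENCODE 44, except that *SOD2* was named from the study's own gene list because its identifier is not in that release, so *SOD2* has no length or TPM. Promoter sequences were RefSeq's. Tables and figures used Python 3.11.15, pandas 2.3.3, numpy 2.4.6 and matplotlib 3.10.9.

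The 43 genes, their roles and the other lists were chosen with earlier results of these data known. Named with values in every library were *NFE2L2*, *KEAP1*, each DEG and, in each role, the 2 called genes of largest change. Others named with library values were chosen after their values were seen. Of other pathway genes, the 2 largest changes per direction and comparison were named.

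Replicate numbers were checked for pairing over 11622 genes. Same-numbered Control and CTCFL-KD libraries deviated together from their group means (r = 0.384, 0.221 and 0.265), although their experiments were separate, whereas for CTCFL-OE r was -0.04, 0.22 and -0.05. With each library's trend on exon length removed, r was 0.272, 0.164 and 0.219 for CTCFL-KD and -0.08, 0.22 and -0.06 for CTCFL-OE. The alternatives were DESeq2 1.42.0, scaling by RLE or by the upper quartile, fitting without the filter, only the groups compared, the replicate block, length offsets, both of these together and each library left out in turn. Depth ranged from 14332622 to 24490080 counts, and a floor of 3 counts per library was used for a count of 0, which covers counting error only.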

Additional observations from a re-analysis of the deposited data

How the results depend on the processing

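In CTCFL-KD, 13 of the 17 called genes kept their call and direction in all 17 alternatives. They were *NQO1*, *TXNRD1*, *SRXN1*, *GCLM*, *GSR*, *ME1*, *FTH1*, *GPX1*, *PRDX2*, *SOD2*, *GSTA4*, *MGST1* and *AKR1B10*, of which *GPX1* passed the filter through CTCFL-KD only and had to differ. *HMOX1* was called in 11, *PRDX1* in 12, *PRDX5* in 8 and *GSTM3* in 9 of the 17. The number called was 17, with 13 to 26 over single libraries left out. It was 26 without CTCFL-KD replicate 1, where 49.9% of all genes were called, against 38.2% with all libraries. The replicate block left all 17 calls of this comparison in place and added none (*NQO1*, log2 fold change -1.26). Without CTCFL-KD replicate 1, lower calls went from 11 to 21 (9 to 21 over single libraries), where lower calls over all genes went from 16.8% to 23.7%. In that fit 4 genes turned negative and were called, *PRDX6* at -0.46, *GSTP1* at -0.43, *MT1X* at -0.80 and *MT2A* at -0.68. Over single libraries left out their highest values were 0.22, 0.65, 0.72 and 0.65. Between CTCFL-KD and CTCFL-OE, calls ranged from 11 to 20 and lower calls from 7 to 14, the highest again without that library. With all libraries 26.8% of all genes were called in this comparison, 11.5% lower. The shares of all genes in the other fits of this comparison are not given here, so these ranges cannot be set against them.

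In CTCFL-OE, DESeq2 and no filter each called 2 genes, against 8.55% and 4.01% of all genes, and the fit of the groups compared called 6 of 39, against 20.2%. Leaving out single libraries gave 0 to 9, with 9 without CTCFL-KD replicate 1, when 27.4% of all genes were called, and 0 without any Control library or CTCFL-OE replicate 2 or 3. *SOD2* was called in 12 of 17 alternatives, but DEGs numbered 0 with DESeq2, RLE and upper-quartile scaling, since its fold change lay at the threshold of 1, and 0 to 1 over single libraries. Of other pathway genes, 103 were tested and 4 were called in CTCFL-OE, against 3.15% of all genes. With DESeq2 and without a filter there were 8, against 8.55% and 4.01% of all genes. There were 22 with the groups compared, against 20.2%, and 7 with length offsets, against 5.96%. Over single libraries left out they numbered 0 to 35, where 27.4% of all genes were called without CTCFL-KD replicate 1. In CTCFL-KD 44 were called, against 38.2% of all genes. Over single libraries left out there were 27 to 54, where 49.9% of all genes were called without CTCFL-KD replicate 1. At this depth *GPX2*, *MT1G* and *MT1E* could not be tested. The cause of these changes was not tested.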
